A study of Mus musculus with 8 samples.

Results

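The glycoside hydrolase family 18 genes of the mouse colon described here are the chitinase-like genes Chil1, Chil3 and Chil4, the chitinase genes Chia1 and Chit1, and the chitinase-domain gene Chid1. They were taken by symbol or synonym from the array annotation as 6 genes of 30705 named ones, and each was measured by 1 probe set, so that the rule to use the brightest probe set of a gene made no choice among them. The difference between inflamed and control colon was in view when the genes were taken up. Their values in that comparison are therefore given as a description, with no p-value.

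Colon RNA of 8 Rag1-/- mice of the C57BL/6 strain was hybridised, 1 array per mouse. The Treg-injected control group held 5 mice given regulatory T cells, and the Naïve T-injected group 3 severely inflamed mice that had received naïve T cells. Both groups lack Rag1, which is needed to assemble antigen receptors, so that T cells can only stem from the injected cells while neutrophils, monocytes and macrophages are the host's own. Cells were transferred at an age of 10 weeks and colons taken 2 to 4 months after that, while the labelled age is 4 to 5 months, so that the exact age is uncertain. The region is uncertain as well, since distal colon and a strip from cecum to rectum are both given. Xist, transcribed from the inactive X of females, was high in 3 controls and 1 inflamed mouse and low in 2 and 2, so the groups differ in that mix, and a fit with this pattern as a block gave differences of 3.34 for Chil3 and 0.998 for Chil4.

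Chitinases of this family cut chitin, a polymer of N-acetylglucosamine found in fungi, insects and worms. The chitinase-like proteins keep the fold and bind sugars but have lost the catalytic residue, and they are secreted by macrophages, neutrophils and epithelium during inflammation. Chil3 (also Ym1) is a classic transcript of macrophages stimulated by interleukin 4 or 13 and is also made by neutrophils and their precursors, and Chil4 (Ym2) is its close paralog. Chil1 (also Chi3l1 or Brp39) is the mouse form of a serum marker of bowel inflammation. Chia1 encodes the acidic chitinase of stomach and lung, Chit1 the chitotriosidase of activated macrophages, and Chid1 a lysosomal and secreted family member.

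The RefSeq gene order (GRCm38.p6) places Chil5, Chia1, Chil3, Chil4 and Chil6 next to each other on chromosome 3, with no other protein-coding gene between them. Chit1 and Chil1 are direct neighbours on chromosome 1, and Chid1 lies apart on chromosome 7. RefSeq promoter windows of 300 bases, from 250 before to 50 after the annotated start, were matched for all 6 genes. The windows of Chil3 and Chil4 were identical at 251 of 271 aligned bases (92.6%), against 160 of 246 (65.0%) for Chil3 and Chia1, 187 of 279 (67.0%) for Chil4 and Chia1, and 153 of 241 (63.5%) for the neighbours Chil1 and Chit1. The stretches around the longest run shared by Chil3, Chil4 and Chia1 are shown because these 3 neighbours differ in their values below. They lie at chr3:106167538-106167742 (minus strand) for Chil3, at chr3:106219481-106219685 (minus strand) for Chil4 and at chr3:106113164-106113368 (plus strand) for Chia1. Capitals mark the shared run TATAAAAAGCCA and any match to the STAT motif TTCNNNGAA.
Chil3: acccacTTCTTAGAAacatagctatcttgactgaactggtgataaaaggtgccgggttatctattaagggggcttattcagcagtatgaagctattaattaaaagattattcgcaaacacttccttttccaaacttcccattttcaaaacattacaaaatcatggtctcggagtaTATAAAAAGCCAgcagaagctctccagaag
Chil4: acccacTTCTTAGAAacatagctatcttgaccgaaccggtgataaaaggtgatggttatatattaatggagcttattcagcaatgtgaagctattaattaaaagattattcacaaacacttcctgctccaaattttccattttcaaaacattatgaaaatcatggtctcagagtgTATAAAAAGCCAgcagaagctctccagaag
Chia1: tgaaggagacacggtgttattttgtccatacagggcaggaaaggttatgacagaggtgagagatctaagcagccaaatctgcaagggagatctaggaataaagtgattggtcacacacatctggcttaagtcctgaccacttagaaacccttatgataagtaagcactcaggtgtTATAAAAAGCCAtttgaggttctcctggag

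The shared run of 12 bases contains a TATA box (TATAAA), and it begins 3 bases before the annotated start of Chil3, 31 before that of Chil4 and 43 before that of Chia1. Of 32851 promoter windows in the table, 8 hold this run on either strand (0.0244%), and 13.6% hold TATAAA. A STAT match, TTCTTAGAA, lies 160 bases upstream of the run in both Chil3 and Chil4, and Chia1 has none in its window, while 8.30% of all windows hold TTCNNNGAA. None of the 6 windows has TTC and GAA spaced by 4 bases, the form STAT6 prefers (6.95% of all windows). The neighbour Chil6 holds TATAAA and TTCNNNGAA too. The windows of Chil1 and Chit1 hold neither a TATAAA nor a STAT match. A loose NF-kB motif (GGG and CC spaced by 5 bases) occurs in the windows of Chil1, Chil3, Chit1 and Chid1, and in 50.8% of all windows. The PU.1 motif GAGGAA occurs in Chia1 (28.3% of windows), the C/EBP motif TTGCNNAA in Chil4 (10.8%) and the AP-1 motif TGANTCA in Chit1 (7.81%).

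Chil3 was the member that differed most. It read 3.73, 3.68, 3.68, 3.56 and 3.63 on controls 1 to 5, and 6.40, 6.56 and 7.71 on inflamed mice 1 to 3, in log2 units of RMA (the authors' normalized array value). The 3 inflamed mice all lay far above the control range, and inflamed mouse 3 was highest by 1.15. The difference of means was 3.24 ± 0.27 (limma SE, n = 5 and 3), or 9.42-fold, and 2.83 without inflamed mouse 3. That SE takes 1 variance for both groups, while the SD was 0.065 in controls and 0.71 in inflamed mice. All 5 control values lay under the median of the array's 5222 negative control probe sets (4.92 to 5.11 across arrays), so the fold change is taken against a level not above background.

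Chil4 was also higher in inflamed colon, at a smaller size. Its values were 3.39, 3.37, 3.35, 3.37 and 3.28 in controls and 4.17, 4.14 and 4.63 in inflamed mice, with no overlap and with inflamed mouse 3 again highest. The difference was 0.96 ± 0.11 (n = 5 and 3), or 1.95-fold, with an SD of 0.043 in controls and 0.27 in inflamed mice. All 8 values lay under the median of the negative control probe sets. Chil3 and Chil4 are close paralogs, so probes of one may pick up the transcript of the other. Transcript and probe sequences were not compared here, so how far the Chil4 value reflects Chil3 was not tested. The flanking genes of the cluster, Chil5 and Chil6, did not pass the test. All 8 values of each lay under the negative control median too, so neither was measured above background. Chil5 read 3.30 to 3.39 in controls and 3.39 to 3.44 in inflamed colon (difference 0.037 ± 0.030, limma adjusted p = 0.44), and Chil6 read 3.68 to 3.80 and 3.55 to 3.68 (difference -0.10 ± 0.043, adjusted p = 0.175).

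Chil1 stood out on 1 inflamed mouse. It read 5.15, 5.10, 5.15, 5.07 and 5.15 in controls, and 5.15, 5.15 and 5.49 in inflamed mice 1 to 3. Inflamed mouse 2 had the exact value of controls 1, 3 and 5, and the groups overlapped. The difference of 0.14 ± 0.080 (n = 5 and 3) was 0.026 without inflamed mouse 3. No Chil1 value lay under the negative control median of its array. Apart from inflamed mouse 3, however, the values of 5.07 to 5.15 lay near those medians (4.92 to 5.11 across arrays). Chil1 was thus read close to background, so these values cannot tell whether it was unchanged in inflamed mice 1 and 2.

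The chitinase genes gave a similar picture for Chit1 and a flat one for Chia1. Chit1 read 4.72, 4.80, 4.67, 4.72 and 4.72 in controls and 4.72, 4.61 and 5.16 in inflamed mice, so that mouse 3 lay above every control and mouse 2 below every control. Of these 8 values, 7 (all but inflamed mouse 3) lay under the negative control median. Its difference was 0.11 ± 0.11 (n = 5 and 3), and without inflamed mouse 3 it was -0.058. Chia1 had the identical value of 3.65 on all 5 controls and read 3.63, 3.63 and 3.68 in inflamed colon, a difference of 0.0011 ± 0.022. All 8 values of Chia1 lay under the negative control median, so it was not measured above background here.

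Chid1 was steady. Its values were 6.83, 6.77, 6.86, 6.77 and 6.76 in controls and 6.66, 6.77 and 6.77 in inflamed mice, all above the negative control median, with a difference of -0.065 ± 0.039 (n = 5 and 3). The highest value was that of control 3 and the lowest that of inflamed mouse 1.

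**Figure D1:**
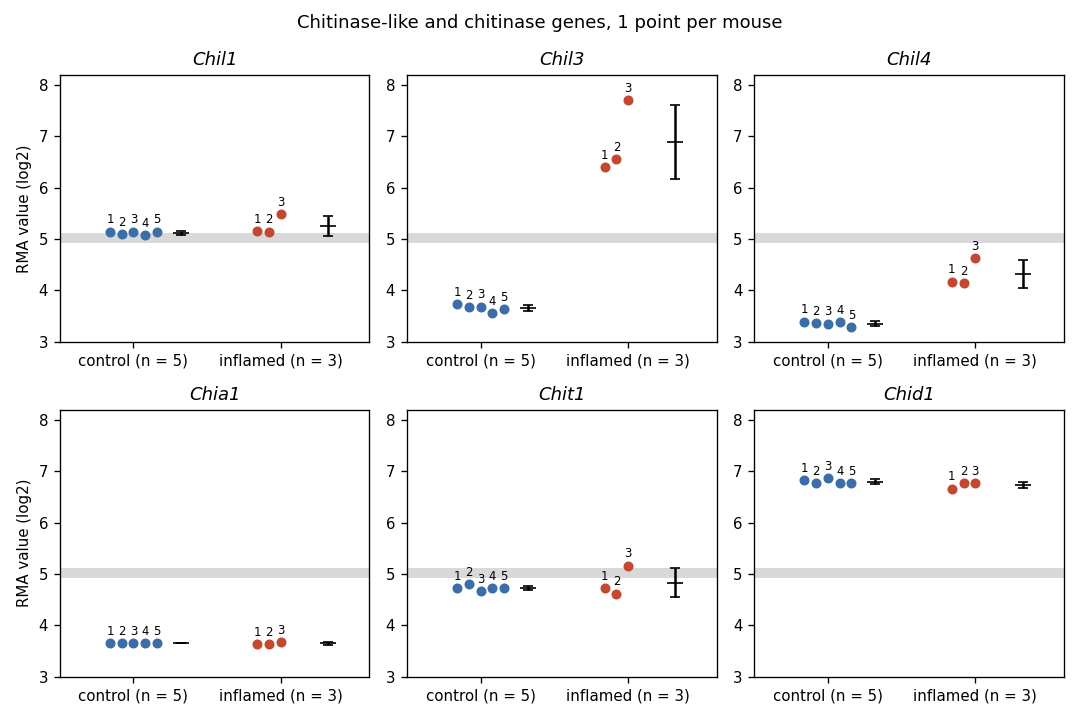
Log2 RMA values of the 6 genes, 1 numbered point per mouse (blue, 5 controls; red, 3 inflamed), with group mean and SD in black and the array medians of the negative control probe sets as a grey band. Chil3 and Chil4 separate the groups, and mouse 3 is the highest inflamed point for every gene except Chid1, where it ties with mouse 2. Levels are not comparable between panels, since probe sets differ in response.

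Exact ties bear on the small errors above. Chil1 and Chid1 each had the same value on 4 arrays, Chit1 on 3 and Chia1 on 5, while Chil3 and Chil4 had 8 distinct values. Among all 30705 genes, 59.7% had at least 2 identical values and 2.45% had all 5 controls identical, so the small SDs of Chia1 and Chid1 rest in part on tied values.

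Set against the whole table, 2 of the 6 genes (Chil3 and Chil4) passed an adjusted p of 0.05 in the limma fit, both higher, where 13.1% of all genes passed, 8.07% as higher and 5.04% as lower. The same 2 had groups that did not overlap, as did 21.2% of all genes. Nothing is read from these shares, because the genes were taken up with this comparison known. The median difference of the 6 genes was 0.12, against -0.013 over all genes.

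Inflamed mouse 3 carried the highest value of all 8 arrays for 5 of the 6 genes, Chid1 being the exception. Over all genes this array was highest for 11.5%, and for 24.7% of the 2478 genes that passed as higher. Of the 5, Chil4 and Chia1 lay under the negative control median on all 8 arrays. Chia1 read 3.68 on inflamed mouse 3, against 3.65 on every control, so its rank there is one within background. The neutrophil marker mean was highest on inflamed mouse 3 too, as was the monocyte and macrophage marker mean given below. The mean log2 value of 13 neutrophil markers was 5.05 to 5.22 in controls and 6.33, 6.60 and 8.08 in inflamed mice 1, 2 and 3. Their summed intensity was 572 to 1907 in controls and 3404, 5182 and 9893 in those mice. Of the 13, 12 were highest on inflamed mouse 3, and 4 passed as higher, S100a9 (a calprotectin subunit) by 5.14 ± 0.59 (limma adjusted p = 0.00222) among them, with 4 of 5 controls under the negative control median. None of the 13 lay under the negative control median on all arrays. Elane, Ngp and Mmp8, however, lay under it on all arrays except inflamed mouse 3, Retnlg on 6 arrays and S100a8 on all 5 controls. Ly6g, a surface protein of neutrophils, varied among controls from 7.50 to 10.58 and differed by 1.84 ± 0.64 (adjusted p = 0.107). In every control it was the brightest of the 13, so the range of the control sums largely follows this 1 gene. Ly6g was also the 1 marker of the list not highest on inflamed mouse 3 (11.17, against 11.38 on mouse 2).

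Some granule and precursor genes, picked after their values were seen, also set mouse 3 apart. Ltf (lactoferrin) read 6.38, 6.56 and 9.68 in inflamed mice 1 to 3, against 5.29 to 5.42 in controls, and Ngp (neutrophilic granule protein) 4.68, 4.49 and 7.42, against 3.84 to 4.05. Neither passed with all 8 arrays (adjusted p = 0.0882 and 0.153). Without inflamed mouse 3 both passed at a smaller size, Ltf with a difference of 1.13 (adjusted p = 0.000589) and Ngp with 0.62 (adjusted p = 0.00672), and all 5 controls and inflamed mice 1 and 2 read Ngp under the negative control median. Mpo, Elane and Camp of the same list were also highest on mouse 3, but their groups overlapped. On inflamed mouse 2 each of them lay below every control, and none passed (limma adjusted p = 0.593, 0.718 and 0.447). Monocyte and macrophage markers were nearer to each other across the inflamed mice, with means of 7.76, 7.95 and 8.04 against 6.58 to 6.76 in controls. Of these 13 markers 11 passed as higher and 1 as lower (summed intensity 1909 to 2152 in controls and 8127 to 10663 in inflamed colon). Lyz2 (lysozyme) rose by 2.76 ± 0.078 (adjusted p = 2.3e-05) and Ly6c2 (inflammatory monocytes) by 3.72 ± 0.21 (adjusted p = 0.00019). T cell markers ran the other way among the inflamed mice, with means of 7.56, 6.85 and 6.52 in mice 1, 2 and 3 and 5.28 to 5.45 in controls, and 6 of 7 passed as higher. The part of these cell types in the values of the chitinase-like genes was not tested, and in whole tissue more cells and more RNA per cell cannot be told apart.

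**Figure D2:**
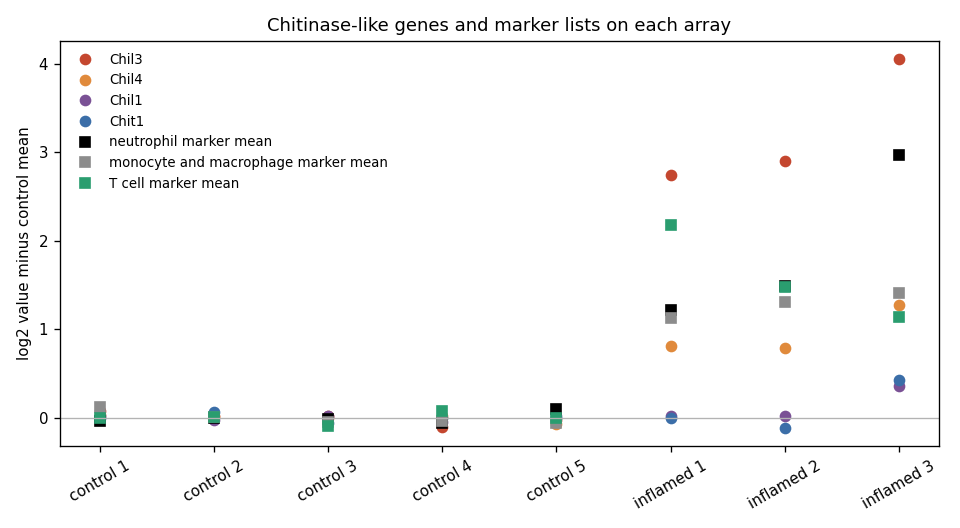
Log2 value minus the control mean on each of the 8 arrays for Chil3, Chil4, Chil1 and Chit1 (circles) and for the means of the neutrophil, monocyte and macrophage, and T cell marker lists (squares). Chil3 and the neutrophil mean are highest on inflamed mouse 3, as is the monocyte and macrophage mean by a smaller margin. The T cell mean of that mouse is lowest of the inflamed mice.

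Markers of colon tissue were present. Muc2 (goblet cell mucin) read 13.75 to 14.01 in controls and 12.76 to 13.60 in inflamed colon, and Car1 (carbonic anhydrase of colonocytes) 13.46 to 13.56 and 13.09 to 13.33. Of 12 epithelial markers 1 rose and 3 fell, and 8 did not pass. Smooth muscle markers fell in 5 of 6, Acta2 by 0.73 ± 0.12 (adjusted p = 0.00802) and Actg2 by 0.63 ± 0.098 (adjusted p = 0.00712). Eosinophil markers gave little signal, as Ccr3, Prg2 and Il5ra lay under the negative control median on all arrays, Il5ra passing as higher, and Epx read 4.98 to 5.05 in controls and 4.96 to 4.99 in inflamed colon. No gastric gland marker of 8 passed (1 at an unadjusted p under 0.05), and Atp4a read 5.54 to 5.64 in controls and 5.34 to 5.54 in inflamed colon.

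**Figure D3:**
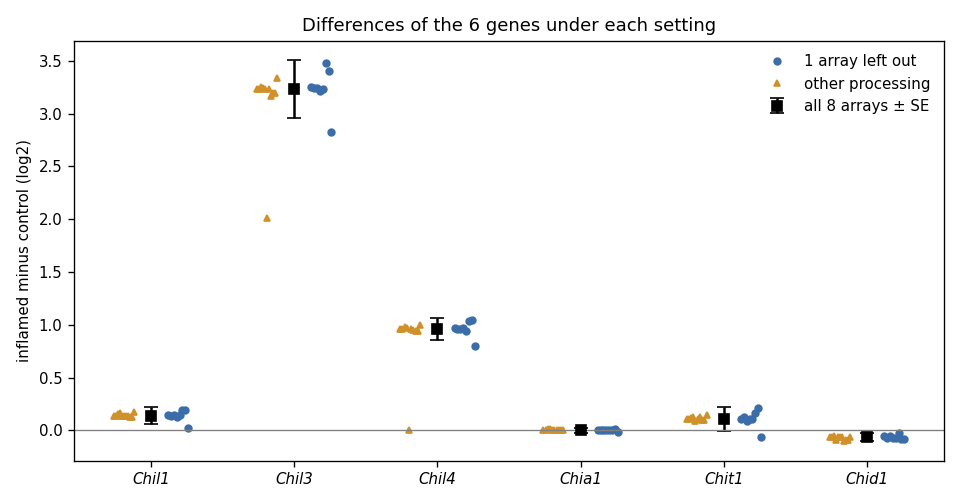
Inflamed minus control difference (log2) of each gene with all 8 arrays (black square ± SE), with 1 array left out (blue circles) and under other processing (orange triangles). Chil3 stays between 2.01 and 3.48, Chil4 falls to 0 when values are floored at the median of all transcript clusters, and Chil1 and Chit1 lose their difference without inflamed mouse 3.

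The 5 genes whose profiles were most like that of Chil3 were Ly6d, Lilrb4a, Lilr4b, Il1f9 and Igsf6. Likeness was the root-mean-square difference over the 8 arrays of log2 values, each taken relative to the gene's own control mean, and it was computed for Chil3 alone, the one member with a difference of at least 1 log2 unit. The nearest was Ly6d, a surface protein gene of the Ly6 family (0.30), followed by the inhibitory leukocyte receptor gene Lilrb4a (0.30), its paralog Lilr4b (0.31), Il1f9, which encodes interleukin-36 gamma (0.32), and Igsf6 (0.37). Lilrb4a read 5.51 to 6.31 in controls and 9.02, 9.17 and 9.92 in inflamed mice, with a difference of 3.51 ± 0.27. Il1f9 read 3.84 to 4.23 and then 6.99, 6.87 and 7.29. These 5 were chosen by their likeness to Chil3, so their differences are given as a description.

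Some receptors and binding partners of Chil1 were higher in inflamed colon. Of 7 measured, 3 rose and 0 fell (42.9%, against 13.1% of all genes), and the list's median difference was 0.072. Il13ra2, the receptor chain that binds both interleukin 13 and the human counterpart of Chil1, read 3.37 to 3.52 in controls and 3.83, 3.85 and 4.01 in inflamed mice, a rise of 0.46 ± 0.053 (adjusted p = 0.00236), with all 8 values under the negative control median and no difference left (0) when values were floored at the median of all transcript clusters. Il13ra1, the signalling chain for interleukin 13, read 9.88 to 10.26 in controls and 10.75, 10.92 and 11.05 in inflamed mice, and rose by 0.78 ± 0.10 (adjusted p = 0.00345). The hyaluronan receptor Cd44 rose by 0.77 ± 0.14 (adjusted p = 0.0123), from 8.32 to 8.95 in controls to 9.29 to 9.43. Tmem219, Lgals3, Sdc1 and Ptgdr2 did not pass, with differences between -0.059 and 0.072.

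Among type 2 genes a receptor and an alarmin rose, while the cytokines that drive Chil3 in macrophages, Il4 and Il13, did not pass the test. Of 9 measured genes 2 rose and 0 fell (22.2%), with a median difference of 0.012. Il4ra, the receptor chain shared by interleukins 4 and 13, read 7.96 to 8.45 in controls and 9.94, 9.48 and 10.16 in inflamed mice, and rose by 1.69 ± 0.18 (adjusted p = 0.00164). Il33, an alarmin released by damaged epithelium and stroma, rose by 1.32 ± 0.28 (adjusted p = 0.0233), with values of 4.66 to 5.17 in controls and 6.03, 5.71 and 7.03 in inflamed mice. Its call ended without any 1 of controls 1 to 4 or inflamed mouse 1 (adjusted p = 0.0508 to 0.0579). Il4 had the identical value of 3.74 on all 5 controls and read 3.66 to 3.74 in inflamed colon, under the negative control median on all 8 arrays, so it was not measured above background. Il5, Il9 and Tslp of the list also lay under that median on all 8 arrays. Il13 read 5.36 to 5.59 in controls and 5.42 to 5.52 in inflamed colon, not far above the negative control medians (4.92 to 5.11 across arrays). It differed by 0.012 ± 0.056 (adjusted p = 0.917) and Stat6, the factor downstream of both Il4 and Il13, by 0.085 ± 0.041 (adjusted p = 0.226).

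Genes that accompany Chil3 in alternatively activated macrophages moved in both directions. Of 14 measured, 4 rose and 1 fell (35.7%), with a median difference of 0.20. Tgm2, a transglutaminase, rose by 2.22 ± 0.24 (adjusted p = 0.00184), from 7.81 to 8.09 in controls to 10.18, 9.57 and 10.79. Retnla, a secreted resistin-like protein and companion of Chil3 in that state, fell by 0.92 ± 0.094 (adjusted p = 0.00143), from 4.71 to 5.09 in controls to 3.84, 4.03 and 4.00, with all 8 values under the negative control median and a difference of -0.060 left with that floor. The mannose receptor Mrc1 rose by 0.69 ± 0.17 (adjusted p = 0.0375), Pdcd1lg2 (the PD-1 ligand PD-L2) by 0.34 ± 0.060 (adjusted p = 0.0117), and the transcription factor Irf4, named to complete the count, by 0.26 ± 0.062 (adjusted p = 0.0318). All 8 values of Pdcd1lg2 and of Irf4 lay under the negative control median, and with the floor their differences were 0 and 0.013. The Mrc1 call ended when any 1 array other than inflamed mouse 3 was left out (adjusted p = 0.0508 to 0.13), with the floor (0.0696) and with the Xist pattern as a block (0.0715), and the Irf4 call when any 1 array other than inflamed mouse 2 was left out (adjusted p = 0.0584 to 0.0991).

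Arginase (Arg1), picked after its values were seen, was highest on inflamed mouse 3, but unlike Chil1 and Chit1 its groups did not overlap. It read 5.26 to 5.41 in controls and 6.07, 5.87 and 9.13 in inflamed mice, a difference of 1.70 ± 0.70 that did not pass (adjusted p = 0.16). Without inflamed mouse 3 the difference was 0.65 and passed (adjusted p = 0.00319).

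Some cytokines and factors known to induce Chil1 were higher. Of 8 measured genes 4 rose and 0 fell (50%), with a median difference of 0.39. Il1b rose by 4.04 ± 0.44 (adjusted p = 0.00187), with values of 5.03 to 5.47 in controls and 8.35, 8.78 and 10.50 in inflamed mice. Tnf rose by 2.31 ± 0.23 (adjusted p = 0.00143), and Ifng rose by 2.01 ± 0.17 (adjusted p = 0.000687), with 6.39 in inflamed mouse 1 against 5.71 and 5.66 in mice 2 and 3. All 5 controls of Ifng lay under the negative control median, and with the floor its difference was 1.04. Stat3 rose by 0.28 ± 0.076 (adjusted p = 0.0493), a call that ended when any 1 array other than inflamed mouse 2 was left out (adjusted p = 0.0509 to 0.14), with the floor (0.0814) and with the Xist pattern as a block (0.0917). Il6 read 3.00 to 3.25 in controls and 3.27, 3.36 and 4.30 in inflamed mice, again highest on mouse 3, and differed by 0.49 ± 0.22 (adjusted p = 0.203). All 8 values of Il6 lay under the negative control median, and its difference was 0.16 without inflamed mouse 3.

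**Figure D4:**
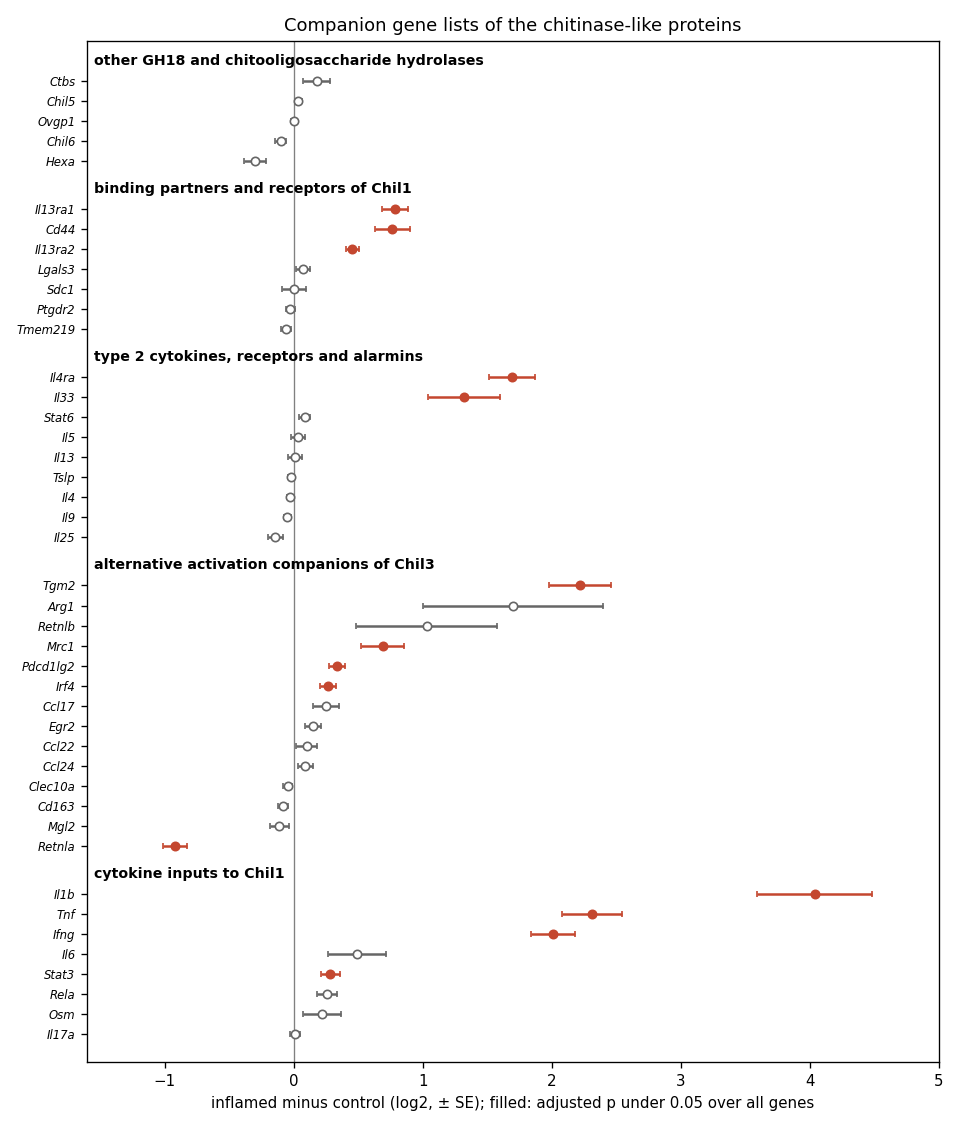
Inflamed minus control difference (log2, ± SE, n = 5 and 3) of every measured gene of the 5 companion lists, with filled points for an adjusted p under 0.05 over all genes. Il1b, Tnf and Tgm2 lie furthest to the right and Retnla furthest to the left, while Il4 and Il13 sit near 0.

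Other family 18 genes and enzymes that break down chitin fragments did not pass. The limma fit called 0 of 5 measured genes, 2 of them having an unadjusted p under 0.05, with a median difference of 0 for the list. Chil5, Chil6 and Ovgp1 lay under the negative control median on all 8 arrays, so they were not measured above background. Ovgp1 had the identical value of 4.53 on all 8, and the list median is its difference. Hexa, a lysosomal hexosaminidase subunit, read 9.12 to 9.48 in controls and 8.99, 8.93 and 8.90 in inflamed mice (difference -0.30 ± 0.087, adjusted p = 0.0663). The groups of Hexa did not overlap, and it passed under quantile normalization (adjusted p = 0.0215), with dim genes left out (adjusted p = 0.0432) and without control 3 (adjusted p = 0.037). Ctbs, which splits chitobiose, read 6.48 to 6.59 in controls and 6.56, 7.02 and 6.56 in inflamed mice (difference 0.18 ± 0.11, adjusted p = 0.317).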

How the data were processed

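Expression was measured on Affymetrix whole-transcript arrays, 1 per mouse. The authors deposited RMA values on a log2 scale, which was inferred from their range, and used Affymetrix Expression Console, per the submitters' processing notes (versions and genome build not given in the sources used here). RMA compresses low signals and gives no detection call. Array medians were 4.81 to 4.91, and the number of arrays limits precision. Replicates are labelled biological and were taken as 1 mouse each. Of 72688 probe sets, 65956 transcript clusters were used, of which 31261 had 1 gene (symbols updated through RefSeq, GRCm38.p6) and 1489 several. The brightest probe set per gene was kept.

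Groups were compared with limma 3.58.1 (lmFit, eBayes, R 4.3.3), without covariates, and Benjamini-Hochberg adjusted over 30705 genes. Adjusted p values in the text come from this fit. In simulated data the fit found 91% of 100 genes shifted by 1 log2 unit and 96% of 100 shifted by 2, with 15 false calls among the unshifted genes. The simulated noise was normal, independent between genes, untied and of 1 SD per gene for both groups, so these rates need not hold for the real values. The 6 genes, the lists and the tests were chosen with earlier results of these data known. Named genes were the 6, up to 4 passing genes per list (else the 2 largest), the 2 brightest markers per cell type, and the 5 profiles most like Chil3. Il4, Il13, Stat6, Arg1, Il6, Irf4, Ltf and Ngp among others were picked after their values were seen. Promoters came from RefSeq (both strands searched) and were aligned with Biopython 1.88. Lists had 3 unmeasured family 18 and hydrolase genes, 2 type 2 genes, 1 cytokine-list gene, 2 eosinophil markers and 1 T cell marker.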

Additional observations from a re-analysis of the deposited data

Results flagged for a closer look

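Of 40 genes examined, 4 had 1 control array far from the other 4 relative to the control range, and none of the 6 chitinase-like and chitinase genes did. Chia1 could not be flagged, since its controls all had the same value. Chance gives about 1 in 20 groups where values are not tied. Il1f9 read 4.23 on control 4, against 3.84 to 3.95 on the other controls. Epx read 5.05 on control 3, against 4.98 to 4.99. Atp4a read 5.64 on control 2, against 5.54 on the others, and Atp4b read 5.29 on the same array, against 5.27. For the last 2 the other 4 controls had identical values, so that any departure, however small, would have been flagged.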

How the results depend on the processing

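Across 19 other fits Chil3 was higher by 2.01 to 3.48, and across the 18 that kept Chil4 its difference was 0 to 1.05. A floor at the median of all transcript clusters gave Chil3 2.01 and Chil4 0, since it lifts lower values to that level. It left 1 of the 6 genes past the threshold, as did leaving out dim genes, which kept Chil1, Chil3 and Chid1. That filter kept a gene if either group mean exceeded 4.88. Chil3 was kept only through its inflamed mean (6.89, against 3.66 in controls), so its call in that fit is no separate check. Centring arrays on their medians gave Chia1 0.016. With the Xist pattern as a block 3272 genes and 2 of the 6 were called. Leaving out 1 array gave ranges of 0.026 to 0.20 for Chil1, 2.83 to 3.48 for Chil3, 0.80 to 1.05 for Chil4, -0.013 to 0.0097 for Chia1, -0.058 to 0.22 for Chit1 and -0.084 to -0.028 for Chid1. Genes called then numbered 2510 (without inflamed mouse 1) to 4577.

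Same-numbered replicates did not pair (correlations of deviations -0.29, -0.053 and 0.069). With the replicate number as a block on replicates 1 to 3, limma called 0 genes, 0 of the 6 and 0 in each of the 5 companion lists. At an unadjusted p under 0.05 it had 4919 genes, 2 of the 6, 3 Chil1 partners, 2 type 2 genes, 6 alternative activation genes, 3 cytokine genes and 0 of the family 18 list. The same arrays without the block, a fit added after seeing the data, gave 1669 genes, 1 type 2 gene and 2 alternative activation genes.

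The family 18 list had 1 call under quantile normalization and with dim genes left out, and 0 to 1 with 1 array left out. Alternative activation calls were 2 with dim genes left out, 1 with the floor and 3 to 5 with 1 array left out. Type 2 calls were 1 to 2 and cytokine calls 3 to 4 with 1 array left out, and those of Chil1 partners 3. No sign changed among the 32 genes outside the 6 that were followed over the fits, while 64 calls were lost and 10 gained. Other genes named above, among them Il4, Il13, Stat6, Chil5, Chil6, Muc2 and Acta2, were not followed.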
